A study of Mus musculus with 13 samples.

Results

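The genes described here encode subunits of the voltage-gated calcium channels. They are 10 of the 41388 genes counted and were taken by symbol: the pore-forming (alpha1) genes Cacna1a, Cacna1b, Cacna1c, Cacna1d, Cacna1e, Cacna1g, Cacna1h and Cacna1i, and the alpha2delta genes Cacna2d1 and Cacna2d3. A voltage-gated calcium channel is built around 1 pore-forming subunit, which sets the voltage range, kinetics and drug sensitivity of the current. An alpha2delta subunit and a cytoplasmic beta subunit join it and raise the number of channels at the membrane. In sensory neurons these channels shape firing near threshold, carry the calcium that releases transmitter in the spinal cord and couple activity to gene expression. Several are drug targets in chronic pain.

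RNA was sequenced from green cells sorted out of dissociated dorsal root ganglia, which hold the cell bodies of spinal sensory neurons. All mice were C57BL/6, aged 3 months, and carried EGFP driven from the Ret locus. The genotype label is Tg(Ret-EGFP)SJ, and the series text describes heterozygotes of a knock-in. Ret is the receptor tyrosine kinase for ligands of the GDNF family, so EGFP selects Ret-positive cells and not all neurons, and every group carries the reporter. The 13 libraries form 4 groups: male L6S1 (n = 4), female L6S1 (n = 3), male L345 (n = 3) and female L345 (n = 3), where L6S1 means ganglia of levels L6 and S1, and L345 ganglia of L3, L4 and L5. The labels give no treatment. Each library pools 2 to 9 mice, so a library is the replicate, and the labels do not say whether the same mice gave both levels. For male L6S1 libraries E and F the level stands in the title alone. The comparisons ask whether the channel genes differ between spinal levels that serve different territories, and between the sexes.

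The deposited totals ran from 13030096 to 27011995 counts per library. Levels within a gene are given as CPM (counts relative to the library total) scaled by the trimmed mean of M values (TMM), and levels between genes as RPKM (CPM per kilobase of exon) with the same scaling. Neuronal genes and Ret were read in every library. Rbfox3, a neuronal nuclear protein, lay between 64.6 and 146 CPM, and Tubb3, a neuronal tubulin, between 2819 and 7865 CPM. Ret lay between 87.2 and 220.6 CPM. It was lowest in male L6S1 E, at -1.17 relative to the other 11 libraries on the log2(CPM + 0.5) scale, against -0.36 in D. The neuronal markers Pou4f1 (264 CPM) and Avil (397 CPM) were also lowest in E, while Isl1 (378.4 CPM) and Prph (2361 CPM) were highest there. The glial markers Pmp22 and Apoe reached 3690 and 4985 CPM, both in E. Of the 5 skeletal muscle markers only Acta1 passed the filter, at 1.66 to 10.9 CPM with its highest values in male L6S1. Male L6S1 D and E stood apart from the other 11 libraries. Their TMM factors were 0.925 and 0.796, against 1.01 to 1.05 in the others. Relative to the other 11, the median of 14 ribosomal protein genes was higher by 1.33 in D and 1.44 in E on the log2(CPM + 0.5) scale. The median of the nonpeptidergic nociceptor markers was -0.84 in D and -1.82 in E. Acta1, the 1 muscle marker tested, stood at 1.72 in D and 1.19 in E. Group comparisons of the channel genes that rest on these libraries are given with and without them. Fold changes and calls of the marker lists and partner genes are given only with D and E included.

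Per length, the genes spread from Cacna2d1, in the upper part of the transcriptome, to Cacna1g, which was nearly absent. Cacna2d1, the subunit that binds gabapentin and pregabalin, had 29.7 ± 11.6 RPKM (SD, n = 13 libraries), above 87.0% of the 15406 genes tested. Cacna1b, the pore of the N-type channel that triggers transmitter release from nociceptor terminals and is blocked by ziconotide, had 9.44 ± 1.85 RPKM (SD, n = 13). Cacna2d3, an alpha2delta gene required for heat nociception in flies and mice, had 3.38 ± 0.798 RPKM (SD, n = 13). These 3 genes held the first 3 places, in that order, in 13 of 13 libraries. The library ranges of Cacna2d1 (16.2 to 57.9 RPKM) and Cacna1b (4.48 to 11.4 RPKM) did not meet. Those of Cacna1b and Cacna2d3 (2.42 to 5.13 RPKM) did, because of male L6S1 E.

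The next places were taken by pores of lower abundance. Cacna1c, the main L-type pore, had 1.54 ± 0.237 RPKM, and Cacna1h, the T-type pore that dominates low-threshold current in sensory neurons, had 1.20 ± 0.239 RPKM (SD, n = 13 each). Cacna1c was above Cacna1h in 10 of 13 libraries, so these neighbours did not separate beyond their spread. Cacna1a, the P/Q-type pore, had 0.694 ± 0.190 RPKM, and Cacna1e, the R-type pore, had 0.472 ± 0.162 RPKM (SD, n = 13 each). Cacna1a was above Cacna1e in 11 of 13 libraries. This order rests on their exonic lengths of 11418 and 24813 bases. In CPM, Cacna1a averaged 7.92 and Cacna1e 11.7 over the 13 libraries. Cacna1i, a T-type pore found mainly in brain, had 0.424 ± 0.106 RPKM and lay below Cacna1e in 8 of 13 libraries, which leaves their order undecided. Cacna1d, an L-type pore that opens at less depolarised voltages than Cacna1c, had 0.238 ± 0.0719 RPKM and was the lowest of the 9 tested genes in 12 of 13 libraries. Cacna1g, another T-type pore, had 3 reads in all 13 libraries together, 1 each in male L6S1 A, female L345 A and female L345 B. It was not detectable beyond the floor of 3 counts per library, which corresponds to 0.111 to 0.230 CPM, and was not tested.

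**Figure D1:**
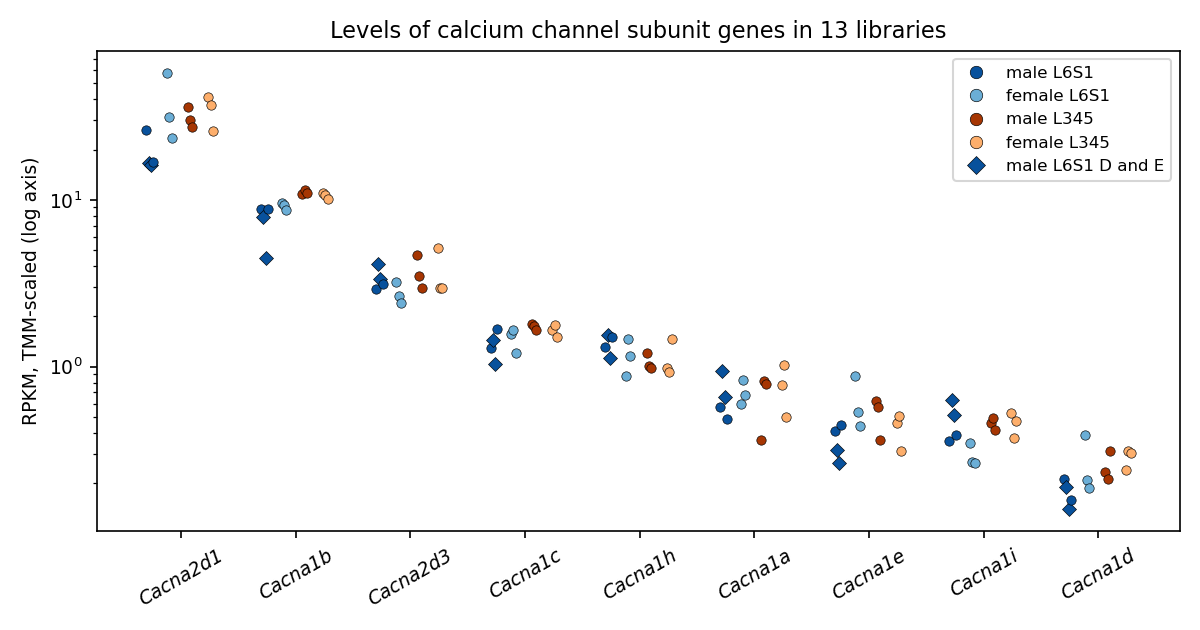
RPKM (TMM-scaled, log axis) of the 9 tested calcium channel genes in each of the 13 libraries, with genes ordered by mean and libraries coloured by group. Cacna2d1 and Cacna1b stand above the rest, Cacna1d is lowest, and the diamonds mark male L6S1 D and E.

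The sequences upstream of the 3 most abundant genes are shown because those genes led in every library. Each is the 250 bases before a RefSeq transcript start on GRCm38.p6, printed on the gene's strand. Capitals mark GC boxes, the letters GGGCGG or their reverse complement CCGCCC, overlapping copies included.
Cacna2d1, chr5:15934441-15934690, plus strand: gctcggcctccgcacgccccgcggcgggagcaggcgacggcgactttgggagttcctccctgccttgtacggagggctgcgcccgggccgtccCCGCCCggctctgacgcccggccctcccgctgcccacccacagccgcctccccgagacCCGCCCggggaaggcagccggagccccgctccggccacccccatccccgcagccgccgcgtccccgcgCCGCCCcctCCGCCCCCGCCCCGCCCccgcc
Cacna1b, chr2:24763153-24763402, minus strand: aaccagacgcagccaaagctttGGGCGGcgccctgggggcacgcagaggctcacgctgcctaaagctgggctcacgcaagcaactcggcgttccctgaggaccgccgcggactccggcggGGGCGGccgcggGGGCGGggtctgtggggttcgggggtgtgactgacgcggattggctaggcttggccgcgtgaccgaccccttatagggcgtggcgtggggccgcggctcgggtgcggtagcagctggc
Cacna2d3, chr14:29721865-29722114, minus strand: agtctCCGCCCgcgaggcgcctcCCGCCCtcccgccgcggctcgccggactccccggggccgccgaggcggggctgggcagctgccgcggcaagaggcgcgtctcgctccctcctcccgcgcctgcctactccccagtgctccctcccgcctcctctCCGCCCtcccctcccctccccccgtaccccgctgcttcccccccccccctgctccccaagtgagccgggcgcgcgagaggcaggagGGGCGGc
The windows hold 6, 3 and 4 GC boxes and are 82.4%, 72.0% and 80.0% G or C. Among all 32851 promoter windows of the same length, 32.7% hold at least 1 GC box and the median is 52.4% G or C. Of 10 starts found for 7 of the genes, 5 hold a GC box, including 1 of 3 starts of Cacna1c with 6 boxes and 1 of 2 starts of Cacna1d with 5. The starts of Cacna1e and Cacna1i hold none. A match is a description of these letters and was not set against any measure of binding.

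Summed over the 8 pores, CaV2 genes (Cacna1a, Cacna1b and Cacna1e) made up 75.3 ± 3.81% of the RPKM, CaV1 genes (Cacna1c and Cacna1d) 12.7 ± 0.930%, and CaV3 genes (Cacna1g, Cacna1h and Cacna1i) 12.0 ± 3.45% (SD, n = 13). CaV2 channels are the high-voltage-activated channels of nerve terminals, CaV1 the L-type channels and CaV3 the low-voltage-activated ones. Cacna1b alone was the most abundant pore in 13 of 13 libraries. Its share was 62.3 ± 5.97% in male L6S1 (SD, n = 4), 67.1 ± 1.84% in female L6S1, 70.3 ± 0.517% in male L345 and 69.2 ± 0.927% in female L345 (SD, n = 3 each). The CaV3 share was 15.9 ± 3.22% in male L6S1 (SD, n = 4), 10.6 ± 1.79% in female L6S1, 9.68 ± 0.933% in male L345 and 10.4 ± 2.55% in female L345 (SD, n = 3 each). The highest CaV3 share, 20.1%, and the lowest Cacna1b share, 54.5%, both belonged to male L6S1 E. Without D and E, male L6S1 A and F had CaV3 shares of 12.8% and 14.0% and Cacna1b shares of 68.1% and 65.5%. These shares are descriptions and were not tested. They depend on the exonic lengths used, which are largest for Cacna1c (21191 bases) and Cacna1e (24813 bases).

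**Figure D2:**
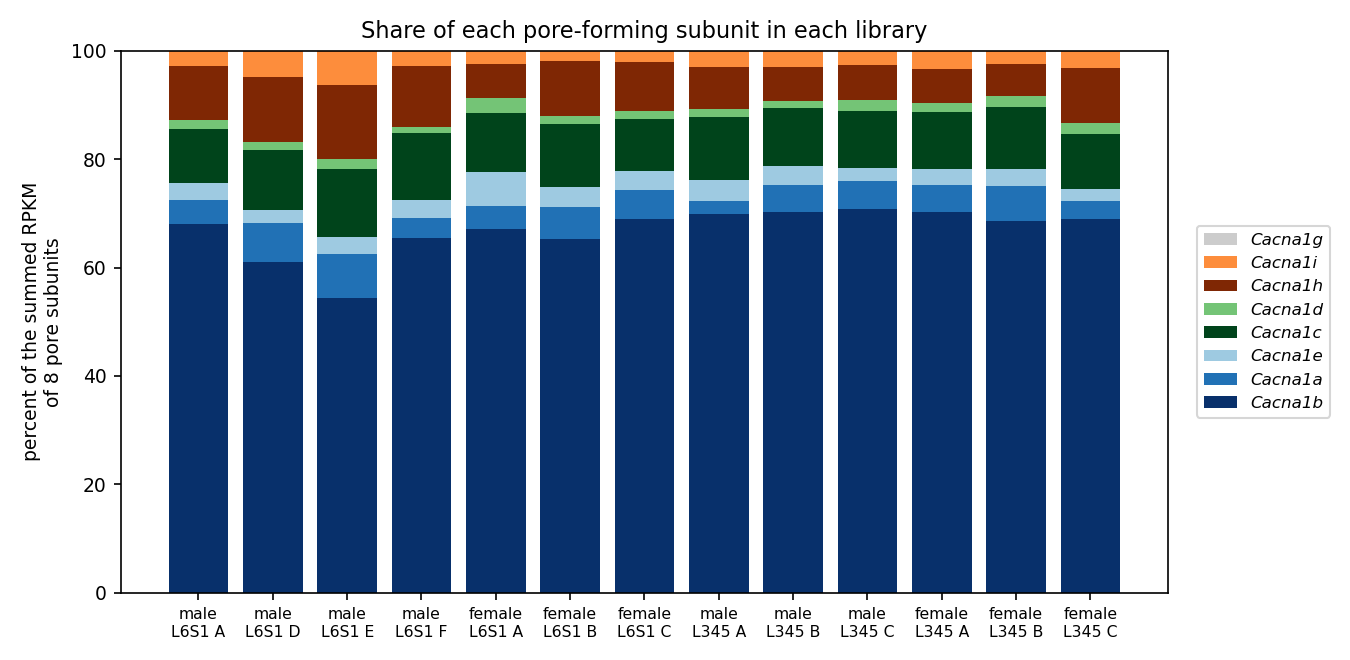
Stacked bars give each pore gene's percent of the summed RPKM of the 8 pores in each of the 13 libraries. Cacna1b fills 54.5% to 70.9% of every bar, and Cacna1g is too low to be seen.

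The summed pore RPKM was lower in every L6S1 library than in any L345 library. It was 11.9 ± 2.48 in male L6S1 (SD, n = 4) and 13.7 ± 0.905 in female L6S1, against 15.8 ± 0.408 in male L345 and 15.3 ± 0.577 in female L345 (SD, n = 3 each). The 7 L6S1 libraries spanned 8.22 to 14.3 RPKM and the 6 L345 libraries 14.7 to 16.2 RPKM. The sums were 12.96 in D and 8.22 in E, and the order held without them, with 12.99 and 13.5 RPKM in male L6S1 A and F. Cacna1b carries most of this sum and was the 1 channel gene whose L6S1 and L345 ranges did not overlap. The order of the sum thus repeats that of Cacna1b, given below, and is not a separate result. Of all genes tested, 0.227% were lower in L6S1 with no overlap. In bulk RNA, fewer cells of a type and less RNA per cell cannot be told apart, here or below.

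Spinal level was compared first, averaged over the sexes. Of the 10 genes, 9 passed the filter on low counts and 0 were called at an adjusted p under 0.05 (edgeR quasi-likelihood test, Benjamini-Hochberg over 15406 genes), against 0.448% of all genes. None of the 9 had an unadjusted p under 0.05 in this fit, against 8.39% of all genes, and DESeq2 and limma voom also called 0 of them. The log2 fold change of L6S1 over L345 was below 0 for 7 of the 9 and above 0 for 2, with a median of -0.28 against 0.02 for all genes. Without D and E the log2 fold changes were -0.27 for Cacna1b, -0.22 for Cacna2d1, -0.36 for Cacna2d3, -0.20 for Cacna1c, -0.29 for Cacna1d, 0.21 for Cacna1h, -0.47 for Cacna1i, -0.23 for Cacna1a and 0.13 for Cacna1e, and 0 of the 9 were called.

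Libraries with the same letter deviated together across levels, weakly in some pairs (r = 0.123 to 0.579 over 4 pairs). Female L6S1 B had a higher r with female L345 C (0.325) than with female L345 B (0.248). A fit with the replicate letter as a block called 837 genes (5.43%) in place of 69, and still 0 of the 9. In the blocked fit 4 of the 9 had an unadjusted p under 0.05, all of them lower in L6S1, against 21.8% of all genes. By edgeR these were Cacna2d3, at -0.54 on the log2 scale (SE 0.15, adjusted p = 0.0529), Cacna1i at -0.58 (SE 0.21, adjusted p = 0.123), Cacna1b at -0.28 (SE 0.10, adjusted p = 0.126) and Cacna1c at -0.33 (SE 0.12, adjusted p = 0.134). For these 4 genes the L6S1 library lay below the L345 library of its sex and letter in 4 of 4 pairs, as it did for 8.97% of all genes. The pairs are A in males and A, B and C in females. In the blocked fit male L6S1 thus enters through library A alone, in the male and in the averaged values.

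**Figure D3:**
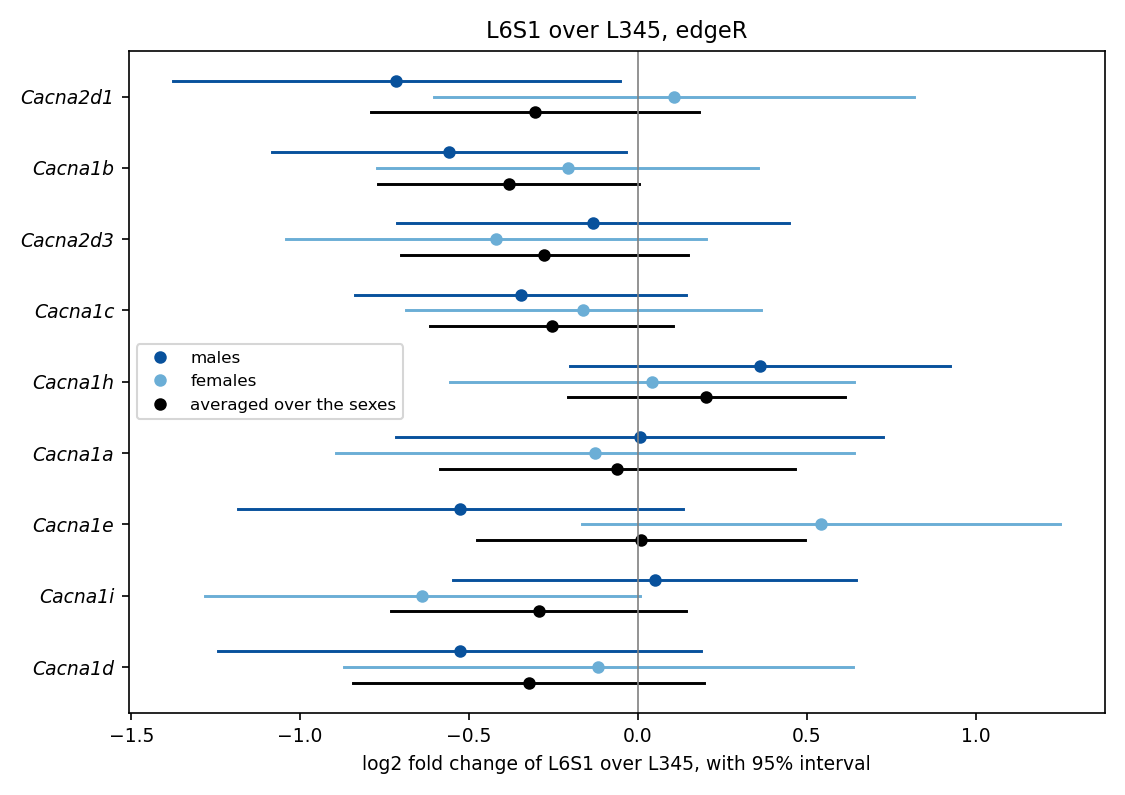
Points are edgeR log2 fold changes of L6S1 over L345 with 95% intervals, for males, for females and averaged over the sexes, with genes ordered by mean RPKM. All 9 averaged intervals include 0, and Cacna1b (-0.77 to 0.00) comes closest to leaving it out.

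Cacna1b had the smallest p of the 9. It had 88.0, 78.6, 44.5 and 88.0 CPM in male L6S1 A, D, E and F and 94.4, 92.7 and 86.8 CPM in female L6S1, against 108, 113 and 109 CPM in male L345 and 109, 107 and 100.4 CPM in female L345. Each of the 7 L6S1 libraries lay below each of the 6 L345 libraries, and E was the lowest. The order held without D and E, where L6S1 spanned 86.8 to 94.4 CPM and L345 100.4 to 113 CPM, and on the deposited CPM, where L6S1 reached 97.4 and L345 began at 102.6. Cacna1b was 1 of 35 genes (0.227%) that were lower in L6S1 with no overlap of the CPM ranges, and 83 genes (0.539%) were higher with no overlap. The log2 fold change was -0.38 (SE 0.18, 95% interval -0.77 to 0.00), or 0.767-fold, with adjusted p = 0.593 by edgeR, so it was not called. Over the 20 alternatives the log2 fold change stayed between -0.43 and -0.27 and the adjusted p between 0.126 and 0.933.

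Transcript length moved with library. Cacna1b has 9942 exonic bases, and over the 2414 tested genes with at least 7 kb of exon the median deviation from the mean of all libraries was -0.70 to 0.40 in the L6S1 libraries and 0.05 to 0.25 in the L345 libraries (log2 scale). The lowest were male L6S1 E (-0.70) and D (-0.42). Without D and E the L6S1 libraries ran from -0.19 to 0.40, with female L6S1 A above every L345 library. Among these long genes 14 (0.58%) were lower in L6S1 with no overlap of the ranges. The part of transcript length in the Cacna1b values was not tested.

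Cacna2d1 varied most. It had 198, 124, 122 and 127 CPM in male L6S1 A, D, E and F and 435, 234 and 176 CPM in female L6S1, against 269, 227 and 207 CPM in male L345 and 312, 279.6 and 193 CPM in female L345. The male L6S1 libraries all lay below male L345, while female L6S1 spanned wider than female L345, from 176 to 435 CPM. The library with letter A was the highest of its group in all 4 groups, as it was for 1268 of 15406 genes (8.23%). The A pools also held the most mice of each group, and the part of pool size was not tested. Averaged over the sexes the log2 fold change was -0.30 (SE 0.23), with adjusted p = 0.674 by edgeR. It was -0.53 without female L6S1 A and -0.18 without female L6S1 C. Across the 13 libraries its coefficient of variation in RPKM was 39.1%, against a median of 35.4% over the genes tested and 15.4% for Cacna1c, the steadiest of the 9.

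The other alpha2delta gene, Cacna2d3, had 10.8, 15.3, 12.4 and 11.6 CPM in male L6S1 A, D, E and F and 11.8, 9.74 and 8.92 CPM in female L6S1, against 17.3, 12.9 and 11 CPM in male L345 and 18.9, 10.9 and 11 CPM in female L345. The groups overlapped, and libraries L345 A of both sexes were the highest. Its log2 fold change was -0.28 (SE 0.20), with adjusted p = 0.662 by edgeR. Without female L345 A it was -0.14 and without male L345 A -0.18. Its blocked adjusted p of 0.0529 was the lowest of the 9 under that fit, and over the 20 alternatives the adjusted p reached 0.933. The ratio of Cacna2d1 to Cacna2d3 in RPKM was 5.82 ± 2.22 in male L6S1 (SD, n = 4), 13.2 ± 4.35 in female L6S1, 8.52 ± 0.809 in male L345 and 9.78 ± 2.42 in female L345 (SD, n = 3 each). In male L6S1 D and E it was 4.00 and 4.83, and in A and F it was 9.04 and 5.40.

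**Figure D4:**
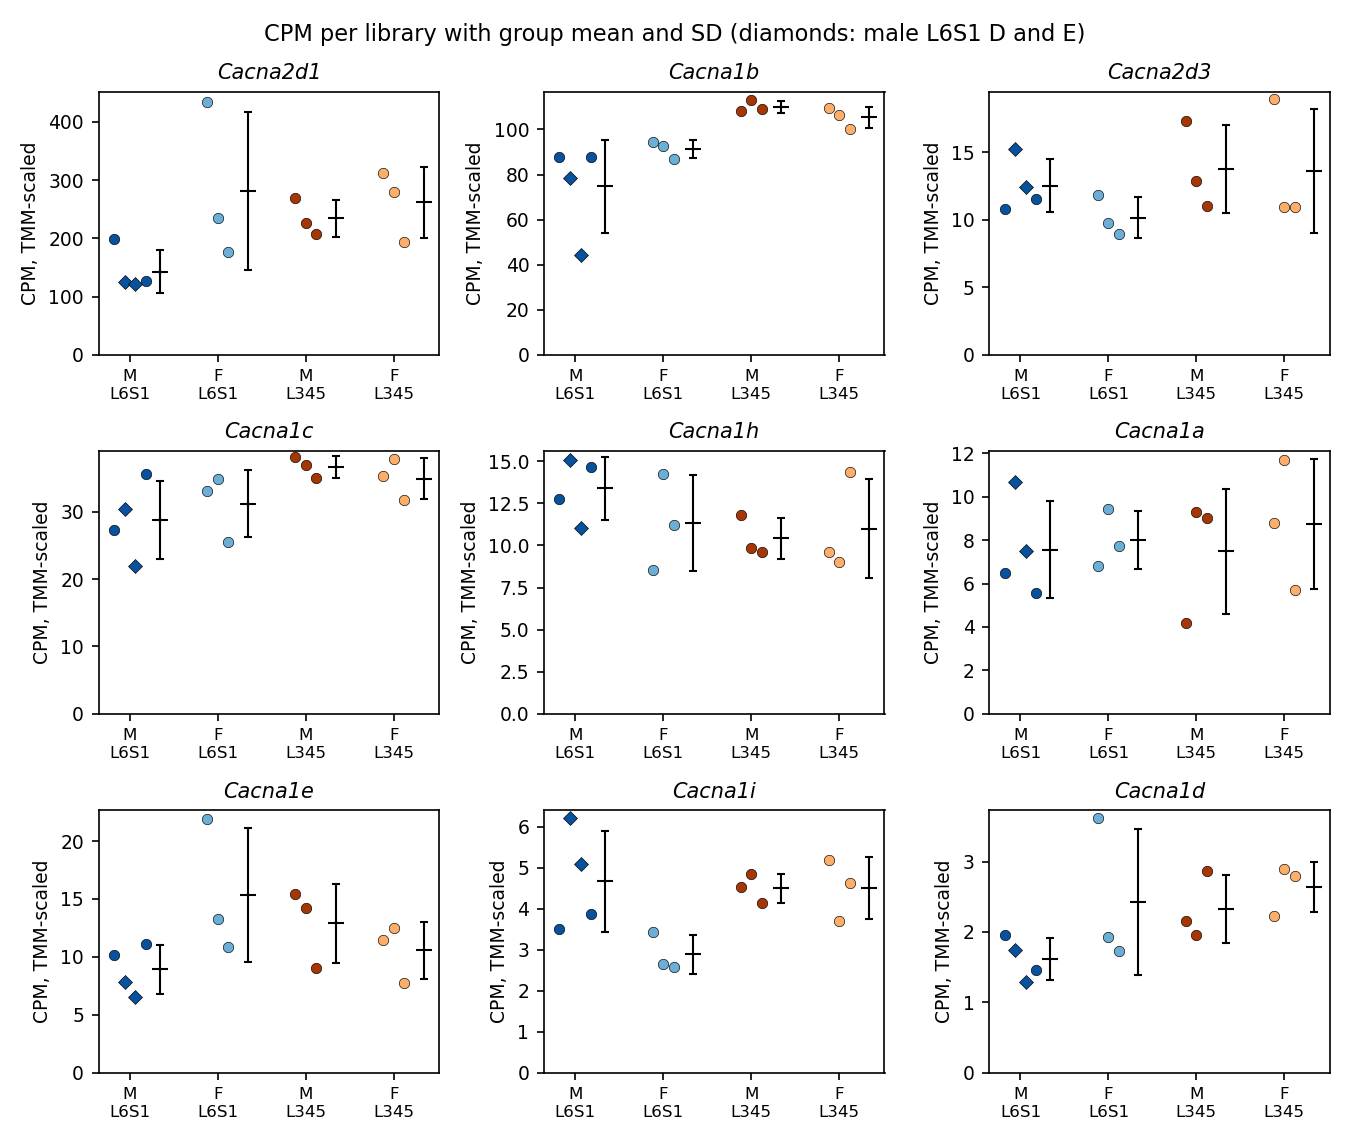
CPM (TMM-scaled, linear axis from 0) of the 9 tested genes in each library, by group, with the group mean and SD drawn beside the points and diamonds for male L6S1 D and E. For Cacna1b all L6S1 points lie below all L345 points, and for the other 8 genes the L6S1 and L345 points, taken over both sexes, overlap.

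Among the L-type pores, Cacna1c had 27.2, 30.5, 21.9 and 35.6 CPM in male L6S1 A, D, E and F and 33.2, 35.0 and 25.6 CPM in female L6S1, against 38.1, 36.9 and 35.0 CPM in male L345 and 35.3, 37.8 and 31.7 CPM in female L345. All 7 L6S1 libraries were under the L345 median of 36.1 CPM, but the ranges overlapped, and L6S1 over L345 stood at -0.25 on the log2 scale (SE 0.17, adjusted p = 0.645 by edgeR), and at -0.33 with the block. Cacna1d averaged 1.61 ± 0.298 CPM in male L6S1 (SD, n = 4) and 2.42 ± 1.04 CPM in female L6S1, against 2.33 ± 0.481 CPM in male L345 and 2.64 ± 0.357 CPM in female L345 (SD, n = 3 each). With 22 to 82 reads per library, Cacna1d rests on the fewest reads of the 9. On the log2 scale L6S1 over L345 was -0.32 (SE 0.25, with adjusted p = 0.674 by edgeR), and -0.53 without female L6S1 A.

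Among the T-type pores, Cacna1h averaged 13.4 ± 1.87 CPM in male L6S1 (SD, n = 4) and 11.3 ± 2.85 CPM in female L6S1, against 10.4 ± 1.22 CPM in male L345 and 11 ± 2.94 CPM in female L345 (SD, n = 3 each). It had the highest log2 fold change of the 9 in the average over the sexes, 0.20 (SE 0.19, adjusted p = 0.724 by edgeR), which was 0.10 without female L6S1 B and 0.32 without female L345 C. Cacna1i had 3.52, 6.22, 5.09 and 3.86 CPM in male L6S1 A, D, E and F and 3.44, 2.65 and 2.59 CPM in female L6S1, against 4.54, 4.84 and 4.14 CPM in male L345 and 5.20, 3.70 and 4.64 CPM in female L345. The female libraries of the levels did not overlap, while in males D and E lay above all 3 male L345 libraries and A and F below them. Its averaged log2 fold change was -0.29 (SE 0.21, adjusted p = 0.657 by edgeR). It was -0.47 without D and E (adjusted p = 0.524 by edgeR) and -0.58 with the block.

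For the remaining CaV2 pores the level estimates lay near 0. Cacna1a averaged 7.56 ± 2.23 CPM in male L6S1 (SD, n = 4) and 8.0 ± 1.33 CPM in female L6S1, against 7.49 ± 2.89 CPM in male L345 and 8.74 ± 3.00 CPM in female L345 (SD, n = 3 each). Its log2 fold change was -0.06 (95% interval -0.59 to 0.47, adjusted p = 0.938 by edgeR), and -0.23 without D and E. Cacna1e averaged 8.92 ± 2.10 CPM in male L6S1 (SD, n = 4) and 15.4 ± 5.80 CPM in female L6S1, against 12.9 ± 3.37 CPM in male L345 and 10.6 ± 2.48 CPM in female L345 (SD, n = 3 each). Its log2 fold change was 0.01 (95% interval -0.48 to 0.49, adjusted p = 0.992 by edgeR), and 0.13 without D and E. Both intervals hold changes larger than the -0.38 of Cacna1b, in either direction.

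In males alone, edgeR called 0 of the 9 genes, against 0.221% of all genes, and DESeq2 and limma voom called 0. An unadjusted p under 0.05 was reached by 2 of the 9, against 25.3% of all genes. By edgeR they were Cacna2d1, with L6S1 over L345 at -0.71 in log2 units (SE 0.31, adjusted p = 0.178), and Cacna1b, at -0.56 (SE 0.25, adjusted p = 0.181). These 2 were also the genes whose male L6S1 libraries all lay below male L345, against 9.49% of all genes, and 0 of the 9 lay wholly above, against 9.2%. Cacna1d and Cacna1e stood at -0.53 each, Cacna1c at -0.35 and Cacna1h at 0.36. The median of the 9 was -0.35 against 0.04 for all genes. Without D and E, Cacna2d1 stood at -0.53 (adjusted p = 0.624 by edgeR), Cacna1b at -0.33 (adjusted p = 0.623), Cacna1d at -0.46, Cacna1e at -0.28, Cacna1c at -0.23 and Cacna1h at 0.39. Cacna1a and Cacna1i, at 0.01 and 0.05 with all libraries, stood at -0.33 and -0.30 without D and E. With the replicate block, 0 of the 9 were called, against 4.67% of all genes, and 4 had an unadjusted p under 0.05, against 22.2%. Without male L6S1 A, 3135 genes were called in this comparison in place of 34, and still 0 of the 9.

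In females alone, edgeR called 0 of the 9 genes, against 0.0195% of all genes, with 0 by DESeq2 and by limma voom and 0 at an unadjusted p under 0.05, against 2.25% of all genes. Cacna1i had the smallest p, at -0.64 on the log2 scale (SE 0.30, adjusted p = 1 by edgeR). Cacna1b and Cacna1i were the 2 genes whose female L6S1 libraries all lay below female L345, against 3.86% of all genes, and 0 of the 9 lay wholly above, against 4.89%. Cacna1e stood at 0.54, Cacna2d3 at -0.42 and Cacna1b at -0.21. Cacna2d1 stood at 0.11, and at -0.35 without female L6S1 A. The blocked fit called 0 of the 9, against 0.623% of all genes, and gave 3 an unadjusted p under 0.05, against 9.99%.

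The difference of the level effect, males minus females, was tested directly. EdgeR called 0 of the 9, against 0% of all genes, and DESeq2 and limma voom called 0. Cacna1e alone reached an unadjusted p under 0.05, against 11.7% of all genes. Its difference was -1.07 (SE 0.46, adjusted p = 0.409), from a log2 fold change of -0.53 in males and 0.54 in females. The differences of Cacna2d1, -0.82 (SE 0.46, adjusted p = 0.421), and Cacna1i, 0.69 (SE 0.41, adjusted p = 0.44), were the next in size. When D and E were left out, Cacna1e stood at -0.82, Cacna2d1 at -0.64 and Cacna1i at 0.35 (adjusted p = 0.841 by edgeR for each). Blocked by letter, 0 of the 9 were called, against 0.201% of all genes, and 2, Cacna1e and Cacna2d1, had an unadjusted p under 0.05, against 16.3%.

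Males were then compared with females, averaged over the levels. Male and female samples carry separate blocks of record numbers, with male L6S1 E and F in a block of their own. Sex therefore cannot be told apart from any difference between these blocks. EdgeR called 0 of the 9, against 0.0779% of all genes, and DESeq2 and limma voom called 0. Cacna2d1 alone had an unadjusted p under 0.05, against 6.1% of all genes. Its log2 fold change of males over females was -0.57 (SE 0.23, adjusted p = 0.665 by edgeR), and 6 of 7 male libraries lay under the female median of 257 CPM. With D and E left out it was -0.49 (adjusted p = 0.881 by edgeR). For Cacna1d the log2 fold change was -0.38 (SE 0.25) and for Cacna1i 0.34 (SE 0.21), each with adjusted p = 0.665, and without D and E they were -0.35 and 0.17. The block left 0 of the 9 called, against 2.4% of all genes, and Cacna2d1 was again the 1 gene with an unadjusted p under 0.05, against 19.9%. The CPM ranges of the sexes overlapped for every one of the 9 genes.

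In male L6S1 D and E, long and short transcripts stood apart, in measures chosen after the data were seen. Relative to the other 11 libraries, the median of genes under 2 kb of exon was 0.63 in D and 0.88 in E on the log2(CPM + 0.5) scale. The median of genes of at least 7 kb was -0.52 in D and -0.80 in E. Of the channel genes, all but Cacna2d3 are in the long class, and they did not move together. Cacna2d1 stood at -0.89 in D and -0.92 in E, Cacna1b at -0.34 in D and -1.15 in E, and Cacna1e at -0.60 in D and -0.84 in E. Cacna1i stood at 0.63 in D and 0.36 in E, against the direction of its length class, and Cacna1a at 0.50 in D and 0.01 in E. The markers of nonpeptidergic nociceptors, C low-threshold mechanoreceptors and peptidergic nociceptors had medians of -0.84, -0.79 and 0.37 in D and -1.82, -1.28 and 0.42 in E. Those of A-fibre mechanoreceptors had -0.12 in D and -0.16 in E. Mrgprb5, a nonpeptidergic marker, went against its list and was at its highest of all libraries in E (43.5 CPM). The part of length, of RNA quality and of cell mixture in these values was not tested.

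**Figure D5:**
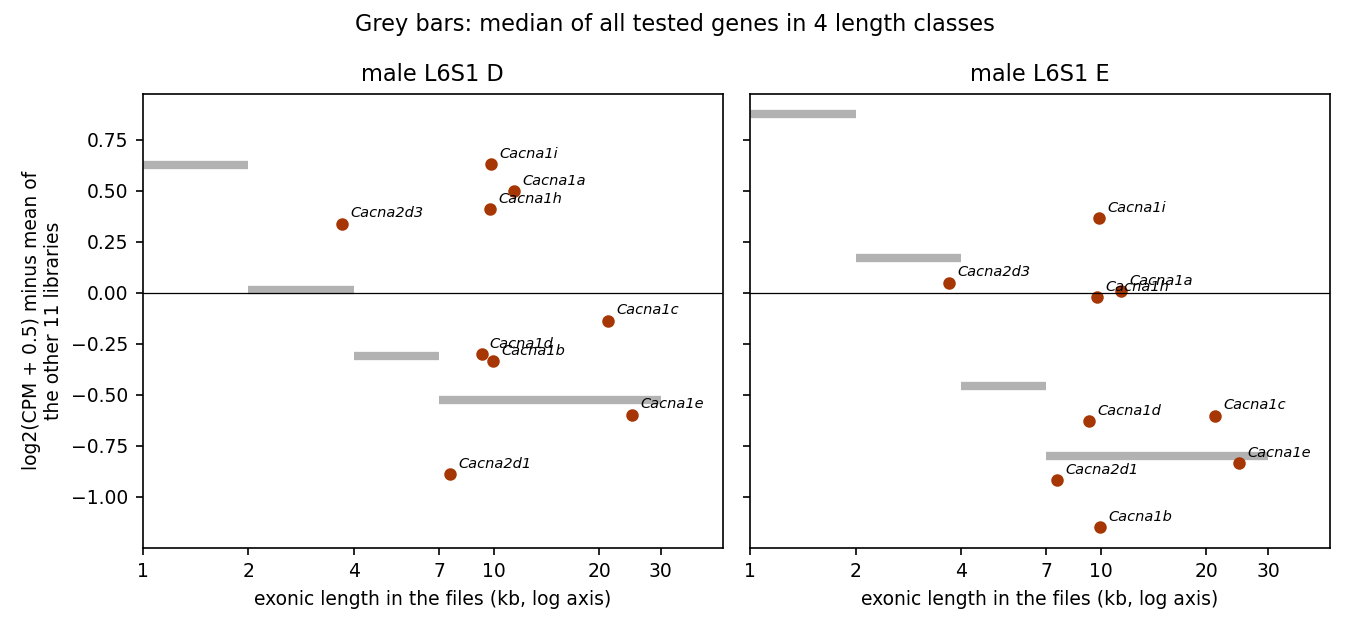
Each point is 1 channel gene, its exonic length (log axis) against its log2(CPM + 0.5) in male L6S1 D (left) or E (right) minus the mean of the other 11 libraries. Grey bars are medians of all tested genes in 4 length classes, drawn from 1 kb to 30 kb for the open classes, with the shortest class at 0.63 and the longest at -0.52 in D, and at 0.88 and -0.80 in E.

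Summed over its list, the nonpeptidergic nociceptor markers spanned 470.1 to 1997 CPM in male L6S1 and 1561 to 1992 CPM in female L6S1, against 1924 to 2481 CPM in male L345 and 1241 to 2268 CPM in female L345. The peptidergic markers, mostly Calca and Tac1, spanned 11300 to 29220 CPM in male L6S1 and 9908 to 11470 CPM in female L6S1, against 7787 to 9399 CPM in male L345 and 9283 to 13810 CPM in female L345. They did not move together. In male L6S1 E, Calca (17040 CPM) and Tac1 (11130 CPM) were at their highest of all libraries, and Trpv1 (221.3 CPM) and Kit (21.5 CPM) at their lowest. The C low-threshold mechanoreceptor markers spanned 1348 to 2089 CPM in male L6S1 and 1203 to 1578 CPM in female L6S1, against 1525 to 1875 CPM in male L345 and 1420 to 1654 CPM in female L345. The A-fibre mechanoreceptor markers spanned 634.5 to 914.5 CPM in male L6S1 and 620.1 to 1054 CPM in female L6S1, against 740.1 to 939.6 CPM in male L345 and 501.9 to 995.2 CPM in female L345. The satellite glia and Schwann cell markers spanned 3625 to 9498 CPM in male L6S1, with E the highest, and 3094 to 3992 CPM in female L6S1, against 3870 to 4543 CPM in male L345 and 3670 to 4419 CPM in female L345. The fibroblast and vessel markers, mostly Dcn, spanned 155 to 608 CPM in male L6S1 and 209 to 450 CPM in female L6S1, against 91.6 to 160.1 CPM in male L345 and 124 to 239 CPM in female L345. The skeletal muscle markers, mostly Acta1, spanned 3.83 to 11.4 CPM in male L6S1, with D the highest, and 2.78 to 3.67 CPM in female L6S1, against 1.80 to 2.38 CPM in male L345 and 3.14 to 4.19 CPM in female L345. The immune markers spanned 12.2 to 36.7 CPM in male L6S1 and 10.5 to 12.6 CPM in female L6S1, against 7.88 to 18.5 CPM in male L345 and 10.1 to 13.6 CPM in female L345. The lowest nonpeptidergic and the highest peptidergic, fibroblast and immune sums belonged to E, and no marker was at 0 in all libraries. The median log2 fold change of L6S1 over L345, averaged over the sexes, was -0.40 for the 8 nonpeptidergic markers, -0.41 for the 7 C low-threshold mechanoreceptor markers, 0.46 for the 7 peptidergic markers, -0.55 for the 10 glial markers and 0.07 for the 10 fibroblast and vessel markers. EdgeR called 0 genes in each of these 5 lists and 0 of 1 tested muscle marker, against 0.448% of all genes. Of the immune markers 1 of 4 tested, C1qb, was called higher in L6S1. In the same comparison DESeq2 also called C1qb higher and 2 glial genes, Erbb3 and Mbp, lower. In males alone, D and E included, DESeq2 called 965 genes in all. Among the markers it called Calca (log2 fold change 1.09), Tac1 (1.60), Gfra3 (0.85), Acta1 (1.66) and C1qb (2.68) higher. Piezo2 (-1.12), Plxnc1 (-1.05) and Erbb3 (-1.05) were called lower there. The part of the marker genes in the channel genes' values was not tested.

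Likeness across libraries paired some of the genes. Over the 13 libraries, log2(CPM + 0.5) of Cacna1b was most like that of Cacna1c among the channel genes (Pearson r = 0.839), Cacna2d1 most like Cacna1e (r = 0.800), and Cacna1i most like Cacna2d3 (r = 0.757). Without D and E, Cacna1b and Cacna1c had r = 0.700, Cacna2d1 and Cacna1e 0.685, and Cacna1i and Cacna2d3 0.766. Cacna1b was then most like Cacna1i (r = 0.751) and Cacna2d1 most like Cacna1d (r = 0.717), while Cacna1i and Cacna2d3 kept each other. Over all 13 libraries Cacna1a and Cacna1h followed no other channel gene, with highest r of 0.071 and 0.053 (0.265 and -0.20 without D and E), and Cacna1h had r = -0.66 with Cacna2d1. Among 11596 genes searched, the most alike were Eif4g3 for Cacna1b (r = 0.983), Zfp280d for Cacna2d1 (0.987), Slc5a7 for Cacna1e (0.965), Pdzd2 for Cacna1c (0.885), Ehmt1 for Cacna1a (0.904), Tnfsf12 for Cacna1h (0.897), Cnksr2 for Cacna1d (0.910), Adgra1 for Cacna1i (0.888) and Fam8a1 for Cacna2d3 (0.912). Without D and E, Slc5a7, Pdzd2, Ehmt1 and Tnfsf12 kept that place (r = 0.959, 0.939, 0.936 and 0.908), and the other 5 genes had another. These values describe libraries that share depth, cell mixture and transcript length effects.

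The partners of these channels were present as well. Cacnb3, a beta subunit, had 47.4 ± 17.8 RPKM, Cacnb4 9.78 ± 2.78 RPKM and Cacnb1 4.13 ± 1.64 RPKM, while Cacnb2 had 0.234 ± 0.0849 RPKM (SD, n = 13 each). The beta subunits bind the pore in the cytoplasm and help it to the membrane. Of the other pore and alpha2delta genes only Cacna2d2, which also binds gabapentin, was tested, with 1.98 ± 0.344 RPKM (SD, n = 13). Cacna1f, Cacna1s and Cacna2d4 had 17, 36 and 27 reads in all 13 libraries together. These retinal and muscle channel genes were not tested.

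No partner gene was called in any of the 5 comparisons by edgeR, DESeq2 or limma voom: 0 of 1 other alpha2delta gene, 0 of 4 beta, 0 of 4 gamma, 0 of 16 channel regulators and 0 of 18 genes of calcium release, clearance and buffering. By level, averaged over the sexes, an unadjusted p under 0.05 was reached by 0 of 1, 0 of 4, 2 of 4, 1 of 16 and 2 of 18 of them, against 8.39% of all genes. Cacnb4 had a log2 fold change of -0.33 (adjusted p = 0.637 by edgeR) and Cacnb3 of 0.27 (adjusted p = 0.725). Cacng5 and Cacng2, named as gamma subunits and known as auxiliary subunits of AMPA receptors, had 0.75 (adjusted p = 0.42) and -0.96 (adjusted p = 0.459). Stac, an adaptor of L-type channels, had 0.52 (adjusted p = 0.564), and Rims1, a scaffold of release sites, -0.55 (adjusted p = 0.593). Ryr3, a ryanodine receptor, had 1.11 (adjusted p = 0.309), and Itpr1, an inositol trisphosphate receptor, -0.69 (adjusted p = 0.414). Dpysl2, whose product CRMP2 binds the N-type channel and which ran from 777 to 9342 CPM, had its lowest values in D and E, at -1.92 and -3.41 on the log2(CPM + 0.5) scale relative to the other 11 libraries. It is named for these values. By level its log2 fold change was -0.47 (adjusted p = 0.697 by edgeR).

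On GRCm38, the genes lie at chr5:15934691-16374511 on the plus strand (Cacna2d1, ENSMUSG00000040118), chr2:24603887-24763152 on the minus strand (Cacna1b, ENSMUSG00000004113) and chr14:28904943-29721864 on the minus strand (Cacna2d3, ENSMUSG00000021991). Cacna1c spans chr6:118587240-119196418 on the minus strand with 21191 exonic bases, and Cacna1e spans chr1:154390731-154884501 on the minus strand with 24813. Cacna1a (chr8:84388440-84640246, plus strand), Cacna1h (chr17:25374285-25433783, minus strand) and Cacna1i (chr15:80287238-80398279, plus strand) have 11418, 9763 and 9862 exonic bases. Cacna1d lies at chr14:30039949-30491156 and Cacna1g at chr11:94408391-94474198, both on the minus strand. Exons of Cacna1a, Cacna1d and Cacna1h overlap an opposite-strand gene, Gm16183, Chdh and Tpsg1, which had 56, 153 and 0 reads in all. The sources used here do not give how strand was handled in counting, so reads in these overlaps cannot be assigned to either gene with certainty.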

How the data were processed

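The authors deposited 1 table per library with raw counts per gene, CPM and RPKM. The deposited CPM divides counts by the library total, and the deposited RPKM also by exonic length: recomputing them gave relative differences of at most 5.10e-15 and 5.21e-14. Per the labels' protocols, libraries were made with a SMARTer Ultra Low Input kit. Per the submitters' processing notes, STAR 2.0.4b, Subread, featureCounts 1.4.5 and Salmon were used with GRCm38.p2 and mm10. The handling of strand and multimapping reads is not given in the sources used here. Symbols came from the GENCODE annotation (40254 of 41388 IDs); the other 1134 held 0.109% of counts.

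Counts were fitted with edgeR 4.0.16 in R 4.3.3 (TMM, filterByExpr, robust quasi-likelihood, 1 mean per group over 13 libraries, 9 residual degrees of freedom), giving 5 comparisons over 15406 genes with Benjamini-Hochberg adjustment at 0.05. Alternatives were DESeq2 1.42.0, limma voom 3.58.1, other scalings, no filter, libraries left out and a replicate block. Same-letter libraries deviated together (r = 0.123 to 0.579 over 4 pairs across levels and 0.274 to 0.598 over 4 pairs across sexes), so letters were taken to pair libraries, though the labels do not say what a letter marks. B and C did not separate (female L6S1 B had r = 0.248 with female L345 B and 0.325 with C), and male L6S1 A had r = -0.127 with female L345 A. D, E and F occur in 1 group and inform no blocked contrast. The fits were checked on simulated data. Counting floors and p-values cover counting error and the spread between pools of mice. The genes and lists were chosen with earlier results of these data known. All 10 channel genes are named. Of each partner list the 2 genes with the smallest p by level are named, and Dpysl2 was added for its values in D and E. For likeness, the gene named has the highest Pearson r among genes averaging 1 or more in log2 CPM.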

Additional observations from a re-analysis of the deposited data

Results flagged for a closer look

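In the group of 4, male L6S1, the most extreme library was compared with the rest for 21 quantities (the 10 channel genes, their sums, ratios and percent shares). Apart from Cacna1g, which was under the floor of 3 counts, 3 values lay farther from the others than Dixon's 95% limit for the gap over the range. Chance alone flags about 1 in 20 such groups. Cacna2d1 in library A had 198.0 CPM, against 122 to 127 CPM in D, E and F (gap over range 0.931). The summed RPKM of Cacna2d1 and Cacna2d3, nearly all of it Cacna2d1, was 29.26 in A, against 19.54 to 20.67 in the others (0.884), so this repeats the first flag. The summed pore RPKM was 8.218 in E, against 12.96 to 13.52 in the others (0.894). Cacna1g, with 1 read in A and 0 in the other 3, also passed the limit (1.0) but was not flagged, as it was under the floor of 3 counts.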

How the results depend on the processing

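No alternative called any of the 9 tested channel genes in any of the 5 comparisons, including the 13 fits that leave out 1 library, and all RPKM means kept within 1 SD. Of 315 fold changes under other settings 302 kept their direction, as did 553 of 585 with 1 library left out. The reversals were of small or poorly determined values, and their cause was not tested.

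Counts over all genes moved more. By level averaged over the sexes, 69 genes became 144 with no filter, 187 with DESeq2 and 837 with the replicate block, and 28 to 129 with 1 library left out (129 without male L6S1 A). In females, 3 became 34 with no filter, 47 with DESeq2, 11 with voom, 23 without D and E and 96 with the block (0 to 11 with 1 library left out). In males, 34 became 264, 965, 16, 19 and 719 under the same settings in that order (4 without male L345 C to 3135 without male L6S1 A). For the difference between the sexes' level effects, 0 became 1 with no filter and 31 with the block, and stayed 0 with each library left out. Between males and females, 12 became 19 with no filter, 24 with DESeq2, 7 without D and E and 369 with the block (10 to 14 with 1 library left out).

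Reversed log2 fold changes by level averaged over the sexes were those of Cacna1e, -0.041 with library totals and -0.066 with the replicate block. In males they were Cacna1a, -0.13 with library totals, -0.001 with no filter and -0.33 without D and E, and Cacna1i, -0.092 (library totals), -0.30 (without D and E) and -0.53 (block). For the difference between the sexes' level effects they were Cacna1a, -0.01 with library totals and -0.20 without D and E, and Cacna2d3, -0.31 with the block. Between males and females they were Cacna1c, 0.03 without D and E, and Cacna2d3, -0.13 with the block.

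With 1 library left out, the ranges by level averaged over the sexes were -0.43 to -0.30 for Cacna1b, -0.53 to -0.18 for Cacna2d1, -0.35 to -0.14 for Cacna2d3, -0.31 to -0.19 for Cacna1c, -0.53 to -0.23 for Cacna1d, 0.10 to 0.32 for Cacna1h and -0.40 to -0.24 for Cacna1i. Those that crossed 0 were Cacna1a -0.20 to 0.073 and Cacna1e -0.17 to 0.11. In females they were Cacna1a -0.36 to 0.14, Cacna1d -0.53 to 0.078, Cacna1h -0.15 to 0.28 and Cacna2d1 -0.35 to 0.35. In males they were Cacna1a -0.28 to 0.19, Cacna1i -0.16 to 0.17 and Cacna2d3 -0.28 to 0.064. For the difference between the sexes' level effects they were Cacna1a -0.16 to 0.36, Cacna1d -0.61 to 0.0 and Cacna2d3 -0.034 to 0.48. Between males and females they were Cacna1c -0.085 to 0.024 and Cacna1h -0.004 to 0.20.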
